A study of Mus musculus with 2 samples.

Results

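The genes described here are the 64 protein-coding mouse genes whose symbols begin with Slc1a, Slc3a, Slc6a, Slc7a, Slc36a, Slc38a or Slc43a, chosen by symbol alone from the 43629 genes counted in both libraries. They number 7 Slc1, 2 Slc3, 21 Slc6, 16 Slc7, 4 Slc36, 11 Slc38 and 3 Slc43 genes. The symbol rule also took Slc7a6os, which lies beside Slc7a6 on the opposite strand and does not encode a transporter, so 63 members are transporters, their subunits or close relatives. The RNA, with poly-A tails, was that of embryonic stem (ES) cells, the pluripotent cells of the early mouse embryo, with the gene Drosha knocked out on a 129/Ola strain background. They were untreated, at passage 7 and kept undifferentiated with LIF in serum-containing medium. Drosha cuts the hairpins of most microRNAs out of their primary transcripts. There were 2 libraries, A and B, both of this 1 genotype, and a library of wild-type cells was not analysed here. The titles number the cells of A and B as 1 and 2 while the source names are identical. Whether A and B are separate lines or cultures is thus not settled, and their spread may be technical. Both titles also share a tag whose meaning is not settled here. Library A held 29264632 gene counts and library B 42322129, of which the members took 0.362% in A and 0.360% in B. The ES cell label was matched by its markers, with all 8 of 8 listed genes at 1 CPM (reads per 1000000, scaled between libraries) or more in both libraries and Pou5f1 at 1399 ± 33.0 TPM (transcripts per 1000000 transcripts; mean ± SD, n = 2, here and for all later values).

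Amino acids cross membranes through several unrelated protein families. Slc7 light chains are held at the cell surface by a heavy chain of the Slc3 family, and the pair exchanges an amino acid inside for another outside. Many Slc38, Slc1 and Slc6 proteins couple uptake to the sodium gradient. Slc36 proteins such as Slc36a1 couple transport to protons, and Slc43 proteins such as Slc43a1 let neutral amino acids pass down their gradient. In growing cells these carriers supply protein synthesis and the signal to the growth kinase mTORC1, and many of their genes respond to amino acid shortage through the transcription factor ATF4.

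Levels of different genes are compared as TPM, which divides reads by exon length, while reads and CPM show the depth behind each gene and compare it between libraries. RNA of these genes was spread over a wide range and concentrated in a few of them. At 1 CPM or more in both libraries were 38 of the 64 members, a share of 59.4% against 57.8% of all 21551 protein-coding genes. The median level was 1.53 TPM among members and 2.68 TPM among protein-coding genes. At 10 TPM or more were 28.1% of members, against 36.3% of protein-coding genes. At 200 TPM or more were 5 members, or 7.81%, against 2.57% of protein-coding genes. The highest member held 17.8% ± 0.168 of all member TPM, the highest 5 held 64.0% ± 0.0446 and the highest 10 held 83.6% ± 0.145 (SD, n = 2), while the 28 members under 1 TPM together held 0.290%. A bulk library does not tell whether a low level comes from a few cells or from little RNA in each cell.

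**Figure D1:**
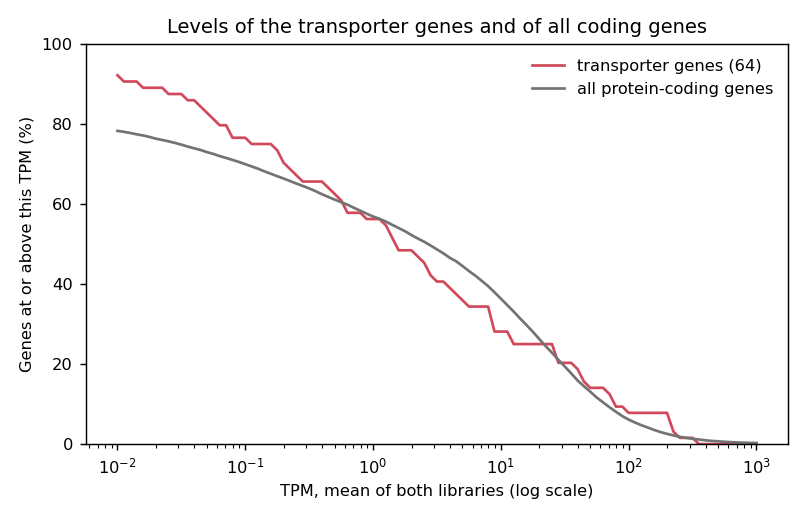
Share of genes (vertical axis, percent) at or above each level (horizontal axis, mean TPM of both libraries, log scale). The curves are of the 64 members, labelled transporter genes and including Slc7a6os, and of all 21551 protein-coding genes. They are close at 1 TPM, and the members lie lower at 10 TPM (28.1% against 36.3%) and higher at 200 TPM (7.81% against 2.57%).

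The 5 highest members were Slc38a4, Slc3a2, Slc38a2, Slc7a5 and Slc7a3. Slc38a4 had 327 TPM in A and 324 in B. Slc3a2 had 239 TPM in A and 229 in B, and Slc38a2 had 202 in A and 206 in B. Slc7a5 had 206 TPM in A and 198 in B, and Slc7a3 had 206 in A and 197 in B. The values of Slc38a2, Slc7a5 and Slc7a3 overlapped between libraries, so these 3 have no order. Among the 20 highest members, 15 of 19 neighbouring pairs had library values apart and 4 overlapped. That order holds for union exon lengths only. With the length of the longest transcript, Slc38a4 had 286 ± 1.39 TPM and remained first, Slc38a2 had 239 ± 3.83, Slc3a2 238 ± 7.17, Slc7a3 225 ± 7.29 and Slc7a5 173 ± 4.77.

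**Figure D2:**
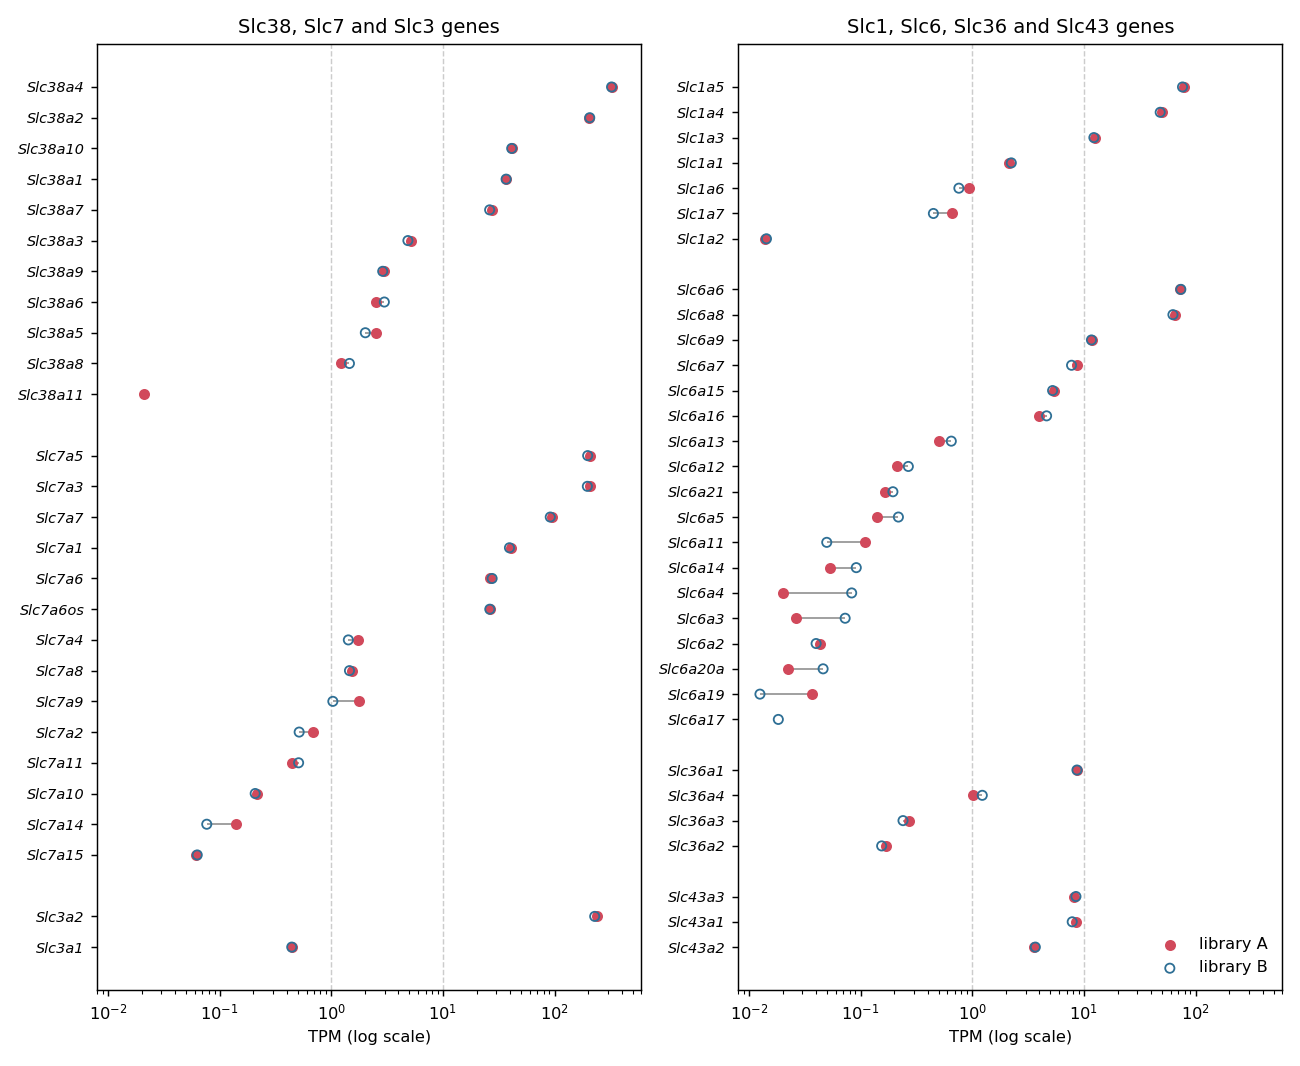
Level (horizontal axis, TPM, log scale) of each member with at least 1 read, by family, in library A (filled points) and library B (open points); dashed lines mark 1 and 10 TPM, a value of 0 is not drawn, and 1 member not reported here is left out. Points of a gene lie close together above 10 TPM, while genes under 0.1 TPM rest on a few reads, as for Slc6a4 with 1 read in A and 6 in B.

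The heteromeric transporters were represented by 1 heavy chain and 3 main light chains. Slc3a2 (ENSMUSG00000010095, chromosome 19, 8706882 to 8723369), the heavy chain also called CD98, drew 9218 reads (314 CPM) from A and 12847 (304 CPM) from B, equal to 234 ± 7.34 TPM. The other heavy chain, Slc3a1, which acts in kidney and intestine, drew 11 reads (0.375 CPM) from A and 16 (0.379 CPM) from B, equal to 0.443 ± 0.000525 TPM. With so few reads this SD understates the counting error. The sum of the 6 light chains known to pair with Slc3a2 was 329 TPM in A and 319 in B, which is 1.39 ± 0.0125 times the Slc3a2 level. Slc7a5 (ENSMUSG00000040010, chromosome 8, 121881150 to 121907694), or LAT1, which imports leucine and other large neutral amino acids, drew 8351 reads (285 CPM) from A and 11680 (277 CPM) from B, equal to 202 ± 5.84 TPM. Slc7a7, which exports cationic for neutral amino acids, drew 3435 reads (117 CPM) from A and 4827 (114 CPM) from B, equal to 93.2 ± 2.38 TPM. Its relative Slc7a6 drew 1308 reads (44.6 CPM) from A and 2006 (47.5 CPM) from B, equal to 26.9 ± 0.975 TPM, a level that overlapped that of Slc7a6os (26.2 ± 0.0935 TPM), the neighbour that is no transporter.

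The other light chains were low. Slc7a8, or LAT2, had 1.496 ± 0.0567 TPM. Slc7a10, a carrier of small neutral amino acids and D-serine, had 0.213 ± 0.00600 TPM. That value rests on 5 reads in A and 7 in B, so its SD understates the counting error. Slc7a11, the light chain of the cystine and glutamate exchanger xCT, drew 68 reads (2.32 CPM) from A and 113 (2.68 CPM) from B, equal to 0.478 ± 0.0444 TPM. Slc7a9, the partner of Slc3a1, drew 52 reads (1.77 CPM) from A and 44 (1.04 CPM) from B, equal to 1.41 ± 0.527 TPM, and was the member above 1 TPM with values furthest apart in proportion to its level. Slc7a15 had 2 and 3 reads, and Slc7a12 and Slc7a13 had 0 in both libraries. For a count of 0 the upper 95% limit is about 3 counts, equal to 0.102 CPM for A and 0.0711 CPM for B. Such limits cover counting error only.

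In the cationic branch of Slc7, named for the carriers Slc7a1, Slc7a2 and Slc7a3, which import arginine and lysine, the level was carried by Slc7a3 and Slc7a1. Slc7a3 (ENSMUSG00000031297, chromosome X, 101079210 to 101086020) drew 8524 reads (291 CPM) from A and 11841 (280 CPM) from B, equal to 201 ± 6.79 TPM. Slc7a1, the widely expressed carrier CAT1, drew 5080 reads (173 CPM) from A and 7238 (171 CPM) from B, equal to 39.9 ± 0.630 TPM. Slc7a2, known from liver and macrophages, had 0.599 ± 0.117 TPM, so the highest and lowest of these 3 related carriers were 336-fold apart in TPM. Of their relatives by sequence, Slc7a4 had 1.57 ± 0.210 TPM and Slc7a14 had 15 reads in A and 12 in B.

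The Slc38 family held the largest share of member RNA, 35.6% ± 0.563, and 10 of its 11 members were at 1 CPM or more in both libraries. Slc38a4 (ENSMUSG00000022464, chromosome 15, 96994820 to 97055956), a system A carrier of neutral amino acids that is imprinted in the mouse and transcribed from the paternal allele, drew 15203 reads (518 CPM) from A and 21960 (520 CPM) from B, equal to 325 ± 1.99 TPM. Slc38a2 (ENSMUSG00000022462, chromosome 15, 96687392 to 96699730), the system A carrier that is induced in amino acid shortage, drew 19520 reads (665 CPM) from A and 29040 (688 CPM) from B, equal to 204 ± 3.01 TPM. Slc38a1, a carrier of glutamine, drew 6871 reads (234 CPM) from A and 10098 (239 CPM) from B, equal to 36.6 ± 0.224 TPM. Its union of annotated exons is 17236 bases against 7266 for its longest transcript, and with the length of that transcript it had 70.4 ± 0.519 TPM. These 3 genes lie within 485 kb of chromosome 15 and together held 31.1% ± 0.551 of member TPM, a grouping noticed after the values were seen.

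The remaining Slc38 genes were lower than Slc38a4 and Slc38a2. Slc38a10, whose role is less well known, drew 2886 reads (98.4 CPM) from A and 4220 (99.96 CPM) from B, equal to 41.2 ± 0.105 TPM. That was above the 36.6 TPM of Slc38a1. With the length of the longest transcript Slc38a10 had 46.8 ± 0.177 TPM, below the 70.4 of Slc38a1. Slc38a7, which exports glutamine from lysosomes, had 27.0 ± 1.07. The system N carriers Slc38a3 and Slc38a5 had 4.996 ± 0.196 and 2.25 ± 0.335 TPM. Slc38a9, the lysosomal arginine sensor of mTORC1, drew 539 reads (18.4 CPM) from A and 768 (18.2 CPM) from B, equal to 2.92 ± 0.0460 TPM. Slc38a6 had 2.75 ± 0.332 and Slc38a8 1.34 ± 0.159 TPM, while Slc38a11 had 1 read in A and 0 in B.

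The Slc1 family divided by substrate. The neutral amino acid exchangers, Slc1a5 (ASCT2, known for glutamine uptake) and Slc1a4 (ASCT1, known for serine and alanine), summed to 129 TPM in A and 125 in B. Slc1a5 drew 3602 reads (123 CPM) from A and 5075 (120 CPM) from B, equal to 77.7 ± 1.84 TPM. Slc1a4 drew 2164 reads (73.8 CPM) from A and 3014 (71.4 CPM) from B, equal to 49.3 ± 1.57 TPM. The 5 glutamate transporters summed to 16.3 TPM in A and 15.7 in B. Of these, Slc1a3, the astrocyte carrier GLAST, drew 1167 reads (39.8 CPM) from A and 1669 (39.5 CPM) from B, equal to 12.4 ± 0.163 TPM, and Slc1a1, a neuronal and renal carrier, had 2.19 ± 0.0689 TPM. Slc1a6 and Slc1a7 were under 1 TPM at 0.847 ± 0.125 and 0.551 ± 0.145, and Slc1a2, the main glutamate carrier of the adult forebrain, had 2 reads in A and 3 in B. Of 8 neuron and glia markers, 4 were at 1 CPM or more in both libraries, the highest being Slc17a7 at 3.44 ± 0.242 TPM, while Aqp4 had 0 reads. Their summed level was 7.60 TPM in A and 7.02 in B, and their part in the levels of Slc1a3 and of the Slc6 genes was not tested.

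In the Slc6 family, which also carries compounds that are not amino acids, 7 of 21 members were at 1 CPM or more in both libraries. Slc6a6, the taurine transporter, drew 6766 reads (231 CPM) from A and 9931 (235 CPM) from B, equal to 73.5 ± 0.384 TPM. Slc6a8, the creatine transporter, drew 3728 reads (127 CPM) from A and 5200 (123 CPM) from B, equal to 64.1 ± 1.97 TPM. Together with the GABA and betaine carriers of the same branch, in which Slc6a11, Slc6a12 and Slc6a13 were under 1 TPM, they held 7.74% ± 0.0269 of member TPM. Slc6a9, the glycine transporter GlyT1, drew 660 reads (22.5 CPM) from A and 956 (22.6 CPM) from B, equal to 11.7 ± 0.0485 TPM, whereas Slc6a5, the GlyT2 of inhibitory neurons, had 11 and 25 reads. The brain proline carrier Slc6a7 had 8.25 ± 0.701 TPM, the branched-chain carrier Slc6a15 had 5.30 ± 0.0829 and the orphan Slc6a16 had 4.28 ± 0.493. The monoamine carriers for noradrenaline, dopamine and serotonin, Slc6a2, Slc6a3 and Slc6a4, had 3, 1 and 1 reads in A and 4, 4 and 6 in B. Several Slc6 carriers of epithelia had 5 reads or fewer in each library: Slc6a19 had 2 reads in A and 1 in B, Slc6a20a had 1 and 3, Slc6a14 had 2 and 5, and Slc6a18 and Slc6a20b had 0 in both. Slc6a17 had 0 reads in A and 3 in B, and Slc6a21 had 7 and 12. Slc6a20a and Slc6a20b encode proteins 90.4% identical, so reads of the pair are uncertain.

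The small Slc36 and Slc43 families were at modest levels. Slc36a1, a proton-coupled exporter of lysosomes, drew 535 reads (18.2 CPM) from A and 776 (18.4 CPM) from B, equal to 8.68 ± 0.0275 TPM. Slc36a4 drew 73 reads (2.49 CPM) from A and 128 (3.03 CPM) from B, equal to 1.13 ± 0.147 TPM, and Slc36a3 drew 7 reads (0.239 CPM) from A and 9 (0.213 CPM) from B, equal to 0.256 ± 0.0226. Slc36a2 had 0.162 ± 0.0101 TPM from 6 reads in A and 8 in B, so its SD, like that of Slc36a3, understates the counting error. Of the Slc43 genes, Slc43a3, reported to carry purine bases, drew 399 reads (13.6 CPM) from A and 603 (14.3 CPM) from B, equal to 8.33 ± 0.216 TPM. The leucine facilitator Slc43a1, or LAT3, drew 529 reads (18.03 CPM) from A and 715 (16.9 CPM) from B, equal to 8.16 ± 0.433 TPM. Its relative Slc43a2, or LAT4, drew 392 reads (13.4 CPM) from A and 587 (13.9 CPM) from B, equal to 3.62 ± 0.0702 TPM. Slc43a1 and Slc43a3 overlapped in level.

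**Figure D3:**
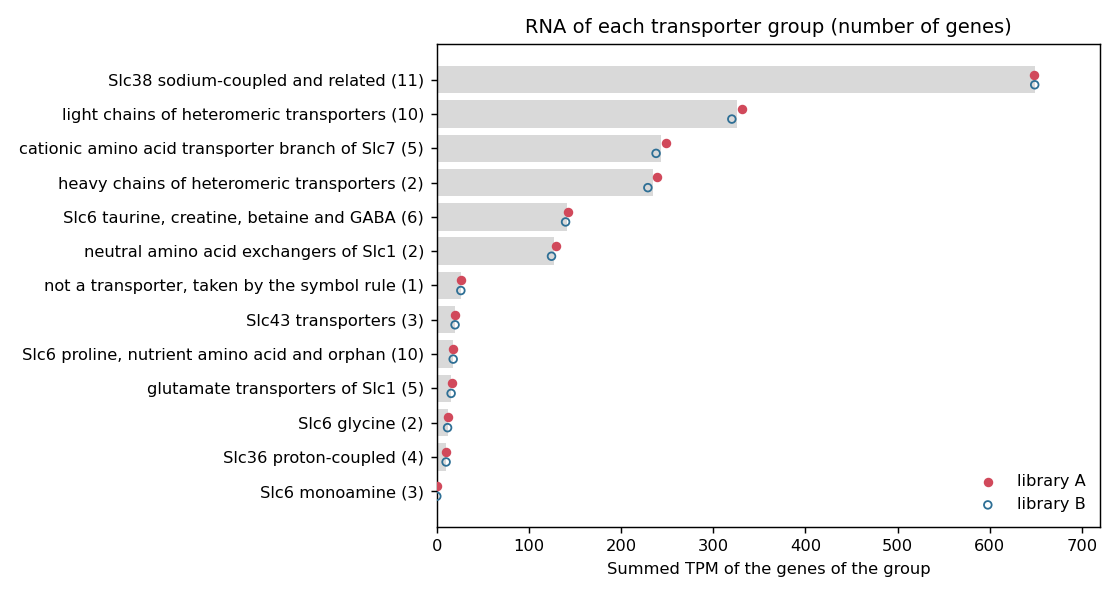
Summed TPM (horizontal axis) of the members of each group, with the number of genes in brackets. Bars are the mean of both libraries and points are library A (filled) and library B (open). Slc38 genes held 649 TPM, the light chains 326, the cationic branch of Slc7 244 and the heavy chains 234, and the monoamine group 0.143.

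Related transporters were alike in level in some pairs and far apart in others. Proteins translated from the annotation were aligned in 401 pairs within families, and 56 pairs were identical at 50% or more of aligned residues. Of the 56, both genes were at 1 TPM or more in 22 pairs, both were under it in 11, and 23 were split. In 30 of the 56 the higher gene reached 10 TPM. Its relative was at 10 TPM or more in 9 pairs, between 1 and 10 TPM in 10 and under 1 TPM in 11. Choosing pairs by the higher gene favours a gap, and 28.1% of all members were at 10 TPM or more. Slc38a4 and Slc38a2, 63.3% identical, were both high, with the first 1.59-fold above the second in TPM. Slc1a5 and Slc1a4, 59.2% identical, were 1.57-fold apart. By contrast Slc7a5 was 135-fold above Slc7a8, to which it is 53.4% identical, and Slc6a6 was 127-fold above Slc6a13, at 62.4% identity. Members share ancestry within a family, so the pairs are not independent and no test was made.

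**Figure D4:**
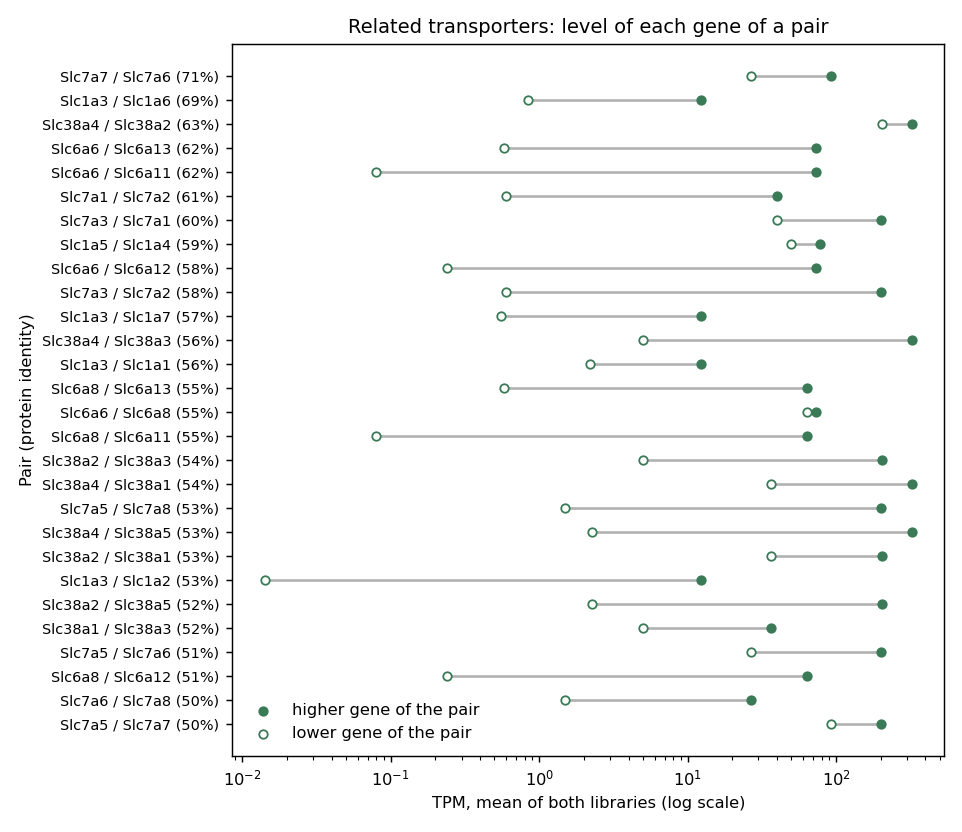
Mean TPM (horizontal axis, log scale) of both genes in each pair of members with protein identity of at least 50% and a higher gene (filled point) at 10 TPM or more; the open point is the lower gene, pairs run from the highest identity at the top, and pairs with 1 member not reported here are left out. Slc7a7 and Slc7a6 (70.9% identity) were 3.46-fold apart, and Slc1a3 and Slc1a6 (69.0%) were 14.6-fold apart.

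Members that lie near each other could differ in level. Within 200 kb of another member were 20 members, in 9 groups. In the chromosome 11 group (55124815 to 55236330) Slc36a1 had 8.68 TPM beside Slc36a2 and Slc36a3 at under 1 TPM. On chromosome 7, Slc6a16 had 4.28 TPM beside Slc6a21 at 0.180 ± 0.0207. On chromosome 2, Slc43a1 and Slc43a3 had overlapping values in the libraries. Exons of 14 members overlap those of another gene, always on the opposite strand; which strand the counting used is not stated in the sources available. The overlap covers 21.1% of the exon length of Slc6a20b, which had 0 reads beside Sacm1l with 1511 in A and 2314 in B. It covers 26.5% of Slc3a1, with 11 and 16 reads beside Prepl with 1145 and 1822. Of Slc1a1, with 193 and 294 reads, it covers 31.9%, and the partner had 8 and 7. Exons of Ccdc24, with 8 and 7 reads, cover 27.8% of Slc6a9, which had 660 and 956.

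Genes of the response to amino acid shortage were all transcribed. All 30 of a list of ATF4 and its kinases, partners and targets were at 1 CPM or more in both libraries, with a median of 53.0 ± 0.836 TPM, against 2.68 TPM for all protein-coding genes. The asparagine synthetase gene Asns had 695 TPM in A and 677 in B, Atf4 itself 532 and 511, and the serine synthesis enzyme gene Psat1 441 and 439. The core of the response element bound by ATF4 with C/EBP partners was searched for on both strands as TGATGNAAN in promoter windows of 250 bases before to 50 after each RefSeq start (GRCm38.p6). Of the 64 members 46 matched an entry, with 67 windows, as a gene can have several. The core was in 7.46% of these windows, against 3.95% of all 32851 windows. The share by window counts Slc7a7 more than once, as its windows overlap and hold a match in common. By gene the core was in only 4 of the 46, or 8.70%, against 4.50% of 27025 genes in the same table. They were Slc7a7, Slc1a4, Slc7a11 and Slc6a21, at 93.2, 49.3, 0.478 and 0.180 TPM, so members with the core lay at both ends of the range. The stricter TGATGCAAT was in 0 of the 46 and in only 0.222% of the 27025 genes, so a count of 0 among so few members tells little. A match is a string of letters and not a binding site, and ATF4 elements outside these windows were not searched.

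The windows are shown for the members at 10 TPM or more with the core, and for Slc7a11, added after its low level was seen; capitals mark the core on either strand. Each piece is the minus strand of its chromosome, read 5′ to 3′. It starts 30 bases before the first match. The last match begins 1 base before the upstream RefSeq start in Slc7a7 (chr14:54417937-54418115), 5 bases before the start in Slc1a4 (chr11:20332710-20332748) and 48 bases before it in Slc7a11 (chr3:50443623-50443709).
Slc7a7: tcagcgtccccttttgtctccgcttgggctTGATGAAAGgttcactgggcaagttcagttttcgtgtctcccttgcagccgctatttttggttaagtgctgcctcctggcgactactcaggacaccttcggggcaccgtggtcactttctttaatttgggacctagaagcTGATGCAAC
Slc1a4: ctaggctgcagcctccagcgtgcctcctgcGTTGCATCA
Slc7a11: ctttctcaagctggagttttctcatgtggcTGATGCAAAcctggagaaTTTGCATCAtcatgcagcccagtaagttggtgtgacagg
Slc7a7 holds the core in both places on the same strand, Slc1a4 holds it reversed, and Slc7a11 holds it once on each strand.

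Other gene groups around the transporters were measured as context. Of the glutathione list, the pathway that uses cysteine, which cells also obtain from the cystine taken up by xCT, 12 of 12 genes were at 1 CPM or more in both libraries with a median of 55.1 ± 1.06 TPM. Gpx1 and Gpx4, glutathione peroxidases, had 257 ± 12 and 227 ± 9.50 TPM, and the mitochondrial glutathione carrier Slc25a39 had 358 ± 13.3. Cth of the ATF4 list, the enzyme that makes cysteine from cystathionine, had 242 ± 5.97 TPM, beside the 0.478 TPM of Slc7a11. All 33 matched genes of amino acid sensing by mTORC1 were at that level, with a median of 28.0 ± 0.145 TPM, led by the nutrient complex subunit Seh1l (154 ± 0.580), the lysosomal anchor Lamtor2 (135 ± 3.81) and the GTPase Rraga (115 ± 3.48). Among 20 other carriers of amino acids, peptides and related amines 14 were, led by the mitochondrial aspartate and glutamate carrier Slc25a13 at 119 ± 1.48 TPM, with Slc25a15 at 23.5 ± 0.368 and Slc25a12 at 22.3 ± 0.973. The lysosomal export list had 7 of 7 matched, led by Mfsd1 (53.8 ± 0.667), Ctns, the cystine exporter (14.0 ± 0.565), and Mfsd12 (10.5 ± 0.330).

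The sodium pump maintains the gradient that many Slc1, Slc6 and Slc38 carriers use. Of its 14 listed genes 9 were at 1 CPM or more in both libraries, among them the beta subunit Atp1b3 at 139 ± 0.354 TPM and the regulator Fxyd6 at 134 ± 0.610. Of 12 cofactors and regulators 9 were, led by Bsg (522 ± 13.2), the ubiquitin ligase Nedd4 (509 ± 4.10) and the kinase Sgk1 (195 ± 0.662). Cltrn, which brings Slc6a18 and Slc6a19 to the surface of kidney cells, had 0 reads, as did Slc6a18.

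Libraries A and B were then compared gene by gene to see how far the member levels held between samples of 1 genotype. With 1 library on each side the difference has no replicate check, and the exact binomial test used weighs the reads of these libraries against counting error only. Genes with 10 or more reads numbered 18198, and 417 of them (2.29%) passed a Benjamini-Hochberg adjusted p of 0.05. Of the 417, 180 (0.989% of genes tested) were higher in A and 237 (1.3%) higher in B. Among protein-coding genes alone the calls made up 2.35% of 14825. Scaled by total counts instead of TMM, 242 genes were higher in A and 180 in B, and after a GC correction the numbers were 37 and 107. Of the 50 members tested 1 was called, a share of 2%, and 0 of 50 with a 2-fold difference, against 16 (0.0879%) of all genes. At an unadjusted p under 0.05 were 6 of 50 members and 2250 of 18198 genes, or 12% and 12.4%. Among members with at least 1000 reads 1 of 23 was called, against 4.27% of 8894 such genes, and all 23 had a log2 ratio of A over B between -0.1 and 0.1.

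The called member was Slc38a2, with 665 CPM in A and 688 in B. Its log2 ratio of A over B was -0.05, with a counting interval of -0.07 to -0.02 (95%, exact binomial; adjusted p = 0.0210, exact binomial test with Benjamini-Hochberg adjustment). Slc38a2 was 1.03-fold higher in B. The call was lost with total counts, where the log2 ratio was -0.04 (adjusted p = 0.0762 in the same exact test). It was lost after the GC correction, where the log2 ratio shrank to -0.02 (adjusted p = 0.691, exact test). In edgeR's exact test, given a coefficient of variation of 0.1, the log2 ratio stayed at -0.05 and the call was lost too (adjusted p = 1). Over all alternatives run the adjusted p in these exact tests ranged between 0.00892, with DESeq2 size factors, and 1. The next members by p were Slc7a9, with 1.77 CPM in A and 1.04 in B (log2 ratio 0.76, adjusted exact binomial p = 0.172), and Slc7a3, with 291 and 280 CPM (0.05, adjusted exact binomial p = 0.211). Slc3a2 and Slc7a5 had log2 ratios of 0.05 and 0.04, with adjusted exact binomial p of 0.258 and 0.397. Slc38a6, with 7.29 CPM in A and 8.76 in B, had a larger log2 ratio of -0.26 and was not called. The median log2 ratio of the 50 members was 0.01, against 0.00084 for all genes tested.

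The ratio of the libraries also moved with GC content, and fibroblast markers differed. Of the 23 members with at least 1000 reads, 13 had a GC content of 50% or more, and 9 of these were higher in A. Of the 10 others 4 were higher in A, Slc38a2 being among the 6 that were higher in B. Over all genes with that many reads the numbers were 2939 of 4214 and 1560 of 4660. Of 10 feeder fibroblast markers 4 were called, all matrix genes with few reads and all higher in A. Col3a1 had 47 reads in A and 14 in B (log2 ratio 2.24), and Dcn had 51 in A and 24 in B (1.60). Col1a2 had 36 reads in A and 16 in B (1.67), and Postn had 22 in A and 8 in B (1.93). The sum of the list was 46.6 TPM in A and 44.4 in B, most of it from Thy1 (log2 ratio -0.02, not called), and Twist2 had 0 reads. Of the response list 2 of 30 were called, both higher in A: Shmt2 with 415 TPM in A and 389 in B (log2 ratio 0.07) and Sesn2 with 152 and 142 (0.09). Of 8 ES cell markers 2 were called, Dppa5a (-0.07) and Tdgf1 (-0.05), both lower in A. Over all genes tested 2.29% were called, and 4.27% of those with at least 1000 reads. Shmt2, Sesn2, Dppa5a and Tdgf1 all had more reads than that, a depth at which small differences are called. Of the other lists 0 genes were called. The part of the fibroblast markers in the member values was not tested.

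**Figure D5:**
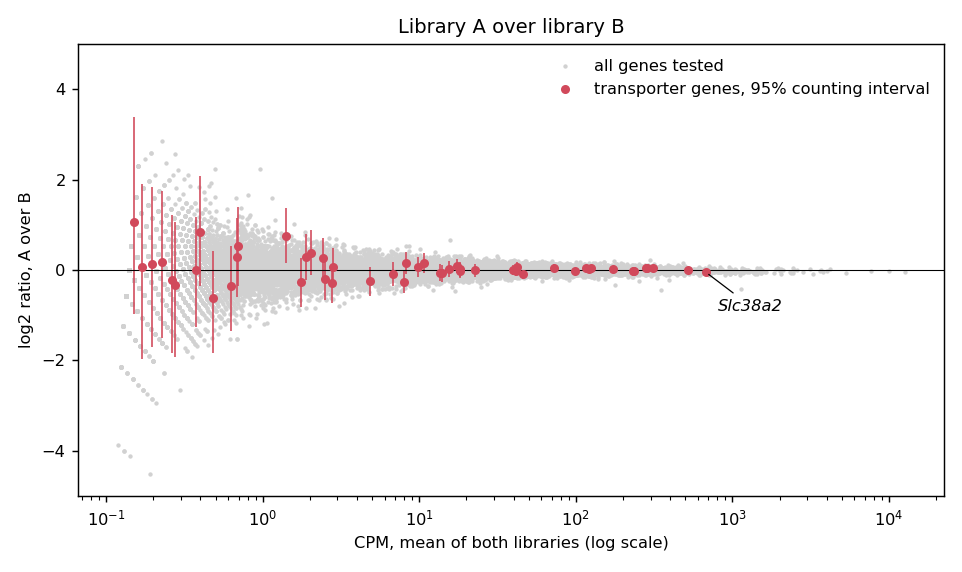
Log2 ratio of library A over library B (vertical axis) against the mean level (horizontal axis, CPM, log scale). Shown are the 50 members tested, labelled transporter genes and including Slc7a6os, with 95% counting intervals, over all 18198 genes tested in grey. The intervals of 44 of the 50 include 0, and those of genes above 100 CPM are narrow, with Slc38a2 at -0.05.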

How the data were processed

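Per the labels, RNA was taken with Trizol and made into reverse-stranded Illumina TruSeq libraries. The authors deposited raw counts of reads per gene, a table for each library. The submitters' processing notes list STAR 2.4.2a, featureCounts 1.4.5-p1 and mm10, but how each was set, which annotation was counted and how reads with several matches were treated is unknown here. All values were whole numbers.

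Symbols, positions, exon lengths and GC content (longest transcript) came from GENCODE M21 (GRCm38, which mm10 also names) and matched 97.5% of gene IDs. The 1081 others held 0.163% of counts and were left out of TPM. Counts were scaled to CPM by TMM on genes with at least 10 reads (edgeR 4.0.16, R 4.3.3). TPM used the union of annotated exons. Values are mean ± SD of both libraries. The log2 ratio is of A over B with 0.5 reads added to each count. For each gene an exact binomial test, two-sided, set its reads in A against the share of A in the TMM-scaled totals, and p-values were adjusted by Benjamini-Hochberg over all genes tested, since edgeR's quasi-likelihood test needs replicates. The test was checked on simulated data. Alternatives were total counts, DESeq2 1.42.0 size factors, a minimum of 1 or 50 reads, a GC correction (20 bins, genes with at least 100 reads) and the exact test of edgeR. Figures and alignments used Python 3.11.15, scipy 1.17.1, matplotlib 3.10.9 and Biopython 1.88 (BLOSUM62, global). Promoter sequences are from RefSeq.

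The members, lists, tests and alternatives were chosen with earlier results of these data known. Every member is accounted for except 1, which, with 2 context genes, is not reported here by name but stays in counts and sums; the 3 highest by TPM of each family, both Slc3 genes and called members were to be given in full, and of each list the 3 highest and the called genes. Protein sequences were not used for print. Samtor, Slc66a1, Slc66a2 and Slc66a4 had no match by symbol. Marker lists of primitive endoderm and trophectoderm had 4 of 8 genes each at 1 CPM in both libraries, with summed TPM of 15.8 and 128 in A and 14.5 and 123 in B.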

Additional observations from a re-analysis of the deposited data

How the results depend on the processing

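The count of 38 members at 1 CPM was 41 at 0.5 CPM, 29 at 5 CPM and 36 at 1 TPM, and 38 with total counts or with either library alone. The median of 1.53 TPM was 2.63 in CPM and ranged from 1.46 to 1.75 with each library left out. The share of the highest member was 14.8% with longest-transcript lengths and 18.8% in CPM, that of the highest 5 was 60.1% and 57.4%, and that of the highest 10 was 82.1% in both. The 417 calls over all genes became 144 after the GC correction and 1 in edgeR's exact test, given a coefficient of variation of 0.1. The 1 member called became 0 with total counts, after the GC correction and in edgeR's exact test; the cause was not tested, and a larger assumed variation widens the error by construction. DESeq2 size factors and a minimum of 1 or 50 reads kept Slc38a2 as the 1 call. The promoter core was in 4 members. The stricter form, which admits fewer sequences, was in 0 members and in 0.222% of all 27025 genes searched. The median log2 ratio stayed between 0.01 and 0.02 under the other scalings, read minimums, the GC correction and 1 read added in place of 0.5. No paired analysis was possible because both libraries belong to 1 group. With reads of 1000 or more per gene counting error was small, while genes under 10 reads were left out of the comparison.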
